A study of Mus musculus with 30 samples.

Results

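The genes Cdh1, Epcam, Cldn3, Cldn4, Cldn6, Cldn7, Ocln, Perp, Dsp and Itgb4 encode proteins that hold epithelial cells to each other or to the matrix beneath them. They were chosen by name as an epithelial adhesion and junction set and matched by symbol to 10 of the 55401 gene identifiers measured, each symbol to a single identifier. RNA-seq had measured their expression in 15 groups of mouse cells, with 2 libraries each and 30 in all, in a study of how mouse embryonic fibroblasts (MEFs) are turned into induced pluripotent stem cells (iPSCs). Values were deposited as FPKM, a level per length of transcript and per fragments sequenced, in 3 tables of 10 libraries each.

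The first table, called the 4-factor arm here, followed MEFs of genotype 129XOG2 (OG2 MEFs at passages 1 to 3). These cells were infected with lentiviruses for c-Myc, Klf4, Oct4 and Sox2 and grown with 2 µg/ml doxycycline. Its groups were day 0, day 2, day 4, day 7 and iPSC. The name 4-factor is that of the labels' protocol, and the measured levels of the 4 genes bear it out in part only (given before the results). The second table, the CF1 chemical arm, followed MEFs of genotype CF1 in a small-molecule reprogramming medium, with the groups day 0, day 4, day 8, day 12 and iPSC. The third, the removal experiment, held 129XOG2 cells in chemical reprogramming from which 1 small molecule was left out from day 8 to day 12, collected on day 12 as -CHIR, -PD, -VC and -WS beside CT. The title of CT is the only one without a minus sign, and for that reason CT was taken as the group with nothing left out. The labels do not expand VC, WS or CT, and they use the full names PD0325901 (0.2 µM) and CHIR99021 (3 µM) just where they describe the iPSC medium, which also holds LIF. The iPSCs of both arms grew on feeder cells, so their libraries can hold feeder RNA, and day 0 MEFs grew in medium with 10% serum. Whether the 2 libraries of a group stem from different cultures is not said in the labels, and p-values therefore speak of the spread between these libraries alone, which may be technical.

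Epithelial cells are joined by several kinds of junction. Near the cell's upper edge, claudins (here Cldn3, Cldn4, Cldn6 and Cldn7) and occludin (Ocln) form tight junctions that seal the space between cells. Below them, E-cadherin (Cdh1) binds neighbouring cells in adherens junctions and is linked to actin through catenins, while EpCAM is a separate surface adhesion protein that binds claudin 7. Desmoplakin (Dsp) ties desmosomes to keratin filaments, and Perp is a membrane protein of desmosomes that is also a known p53 target. Integrin beta 4 (Itgb4) pairs with integrin alpha 6 in hemidesmosomes, which anchor cells to the basement membrane. Fibroblasts lack most of these structures, and cells on the way to mouse iPSCs are known to take on epithelial features in what is called a mesenchymal-to-epithelial transition.

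The positions of the genes are those of GENCODE M21 on GRCm38, from first to last annotated base. On the plus strand lie Cdh1 (ENSMUSG00000000303, chr8:106603351-106670246), Perp (ENSMUSG00000019851, chr10:18845020-18857073), Dsp (ENSMUSG00000054889, chr13:38151294-38198577), Itgb4 (ENSMUSG00000020758, chr11:115974709-116008412), Epcam (ENSMUSG00000045394, chr17:87635979-87651129), Cldn3 (ENSMUSG00000070473, chr5:134986214-134987472), Cldn6 (ENSMUSG00000023906, chr17:23679249-23682446) and Cldn7 (ENSMUSG00000018569, chr11:69964779-69967885). The minus strand holds Cldn4 (ENSMUSG00000047501, chr5:134945119-134946934) and Ocln (ENSMUSG00000021638, chr13:100496507-100552718).

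FPKM totals per library ranged from 328158 to 469208, and the lowest values lie on regular steps that give 34500000 to 40200000 steps per library, each step being 1 read or fragment. Replicates correlated with r of 0.9615 to 0.9943 across genes. At day 4 of the 4-factor arm 600 genes differed over 2-fold between the replicates, the most of any group, and CT replicate 2 held 2.03% of its FPKM in mitochondrial coding genes, against 5.77% to 8.12% in the other libraries of its table. The 8 fibroblast markers (collagens, Pdgfra, Pdgfrb, Thy1, Dcn and Postn) summed to 43.1 and 46.4 FPKM in the iPSC libraries of the 4-factor arm and to 5371 and 5032 FPKM in its day 0 libraries. The 8 pluripotency markers summed to 3256 and 4061 FPKM in those iPSC libraries, against 17.0 and 15.6 FPKM at day 0. In the CF1 arm the fibroblast sums were 167 and 163 FPKM in iPSCs and 3128 and 3036 FPKM at day 0, and the pluripotency sums 3930 and 3795 FPKM in iPSCs and 24.2 and 24.3 FPKM at day 0. In each arm all 8 fibroblast markers fell and all 8 pluripotency markers rose in iPSCs against day 0, as the labels would have it. Of the 4 delivered factors, Sox2 was called higher at day 2 of the 4-factor arm than at day 0, and Pou5f1 (Oct4) and Sox2 at days 4 and 7, while Myc and Klf4 were called lower at days 4 and 7. The 4 genes summed to 42.0 and 37.3 FPKM at day 2, against 54.8 and 55.9 FPKM at day 0, with Myc at 25.2 and 22.5 FPKM at day 2 and 32.3 and 32.5 FPKM at day 0, and Klf4 at 12.97 and 11.4 FPKM at day 2 and 22.2 and 22.95 FPKM at day 0. Thus the gene levels show Sox2 and later Oct4 above day 0, and neither c-Myc nor Klf4; the labels do not say whether transcripts from the lentiviruses count in these FPKM values.

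Promoter sequence is shown because the core letters CAGGTG, read as CACCTG on the other strand, form an E-box to which Snai1 and Zeb1, known repressors of epithelial genes, can bind. RefSeq promoter windows (GRCm38.p6, 250 bases before to 50 after each start) were at hand for 7 of the 10 genes, in 9 windows. CAGGTG or CACCTG stood in 8 of the 9 windows, at least 1 window of each of the 7 genes, against 6640 of all 32851 windows (20.2%). The Ocln windows overlap and share 1 match. The window without a match is a Cldn7 window, chr11:69964529-69964828, which spans the first annotated base given above. Both Cldn7 matches lie in another window inside the gene, chr11:69965171-69965470. The Cldn6 and Ocln matches printed here also lie inside the annotated genes. CAGGTG and CACCTG are the same motif on opposite strands, and a match is a description of letters, not of binding. One match per gene follows, 30 bases on the gene's own strand with the motif in capitals.

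Epcam, chr17:87635948-87635977, plus strand: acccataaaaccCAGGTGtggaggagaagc
Cldn3, chr5:134986233-134986262, plus strand: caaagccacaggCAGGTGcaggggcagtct
Cldn4, chr5:134946931-134946960, minus strand: ctttaactgcagCACCTGtggccgcccttt
Cldn6, chr17:23679260-23679289, plus strand: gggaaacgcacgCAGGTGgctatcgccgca
Cldn7, chr11:69965312-69965341, plus strand: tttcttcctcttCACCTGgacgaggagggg
Ocln, chr13:100552549-100552578, minus strand: ctaggggctcggCAGGTGggtcccagcgca
Dsp, chr13:38151285-38151314, plus strand: gaagaagccgacCAGGTGtggcctgggcgc

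Counting the RefSeq start as base 1 and the base before it as -1, the motif began at -19 in Epcam, 32 in Cldn3, -14 in Cldn4, -93 in Cldn6, -97 in Cldn7, -68 in Ocln and 4 in Dsp. Windows of 5 genes held a second match, beginning at -187 in Epcam, 12 in Cldn4, 41 in Cldn6, -57 in Cldn7 and -213 in Ocln. The match at 8 in the other Ocln window is that same Ocln site, chr13:100552694-100552723, because the Ocln windows overlap. Dsp shares the motif with the claudins. For Cdh1, Perp and Itgb4 no window was at hand, and any part of the motif in the levels was not tested. Cldn3 and Cldn4 are neighbours on chromosome 5, with 39280 bp between the 2 genes in GENCODE M21.

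**Figure D1:**
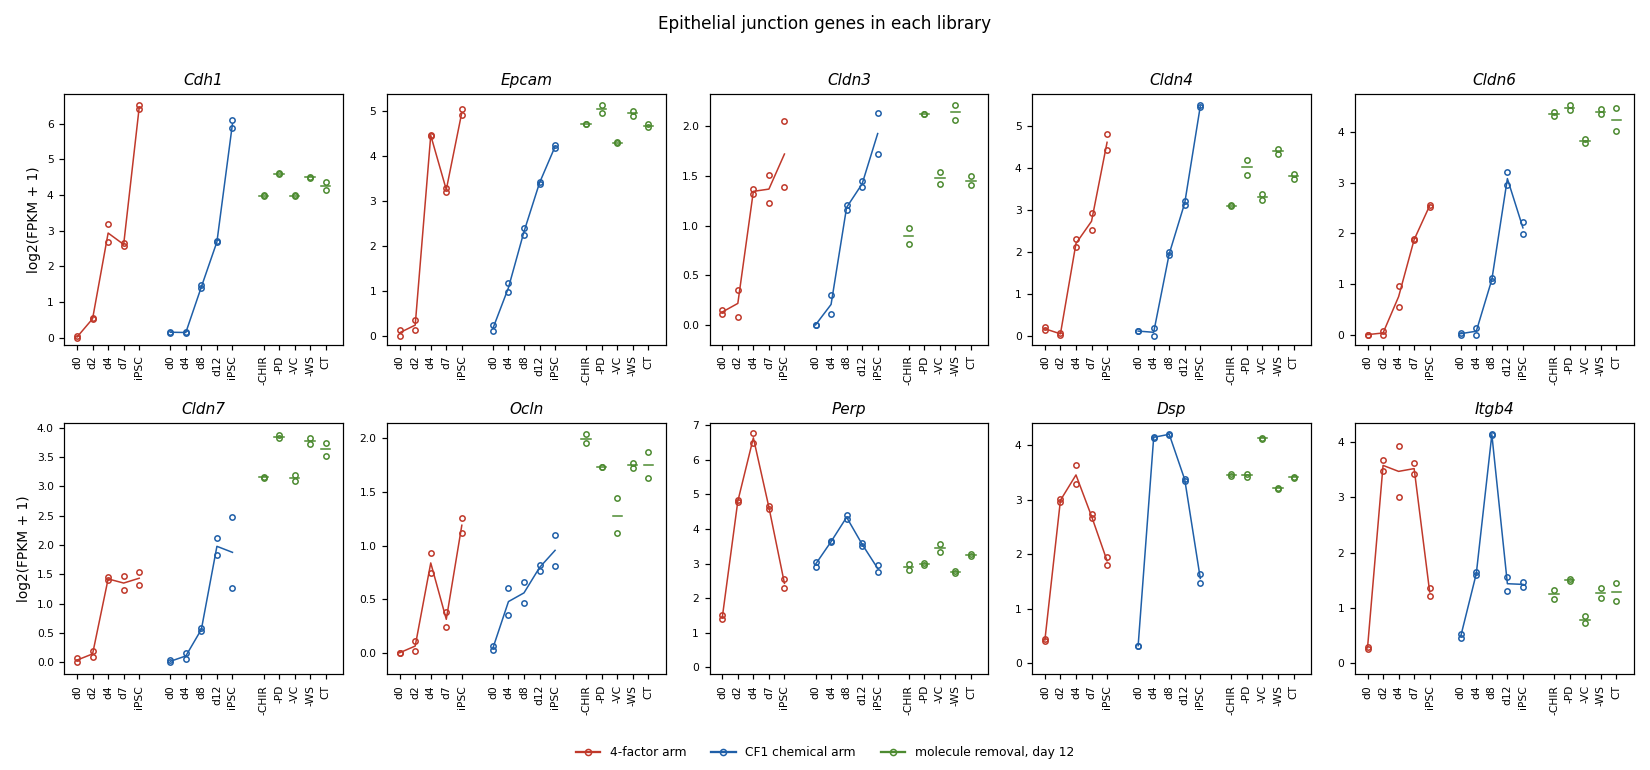
Level of each of the 10 junction genes in every library, as log2(FPKM + 1) on the vertical axis, with 1 panel per gene and the groups along the horizontal axis; circles are libraries, lines or bars join or mark the 2-library means. Perp has its peak at day 4 of the 4-factor arm (88.8 and 109 FPKM), while Cdh1 is highest in iPSCs (89.9 and 83.5 FPKM in the 4-factor arm).

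In the 4-factor arm the desmosome and hemidesmosome genes were called first. E-cadherin, EpCAM, Cldn3, Cldn4 and Cldn7 were called by day 4, and most of the E-cadherin level was reached in iPSCs. This is an order of calls, and for E-cadherin it depended on the setting (given with day 2). Changes are differences of log2(FPKM + 1) with their standard error, and a gene was called when limma's Benjamini-Hochberg adjusted p over all genes of the table was under 0.05 and the change was at least 2-fold. The verbs rise and fall refer to called genes. Adding 1 FPKM makes these changes smaller than the true ratio for genes of low level. These are bulk libraries, in which a larger share of expressing cells and more RNA per cell cannot be told apart. All 10 genes passed the filter on low values in this table (1 FPKM in at least 2 libraries). Ocln passed through its iPSC libraries alone and Cldn6 through day 7 and iPSC. Cdh1, Epcam, Cldn3, Cldn4 and Cldn7 passed through day 4, day 7 and iPSC. Dsp and Itgb4 reached 1 FPKM from day 2 on, and Perp alone did so at day 0. Differences from day 0 were thus partly fixed by the filter for all genes but Perp. Starting under 1 FPKM, those genes could not be called lower than day 0.

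At day 2, 3 of the 10 genes were called higher than at day 0 and none lower, against 1.95% of the 14761 genes tested called higher and 1.73% lower. Perp had 26.5 and 27.4 FPKM at day 2, against 1.61 and 1.83 FPKM at day 0, a rise of 3.36 ± 0.14 (adjusted p = 6.05e-06). Itgb4 had 11.8 and 10.1 FPKM at day 2 and 0.193 and 0.229 FPKM at day 0 (3.30 ± 0.26, adjusted p = 0.00014). Dsp had 7.11 and 6.80 FPKM at day 2 and 0.356 and 0.334 FPKM at day 0 (2.56 ± 0.15, adjusted p = 2.73e-05). For these 3 genes both day 2 libraries lay far above both day 0 libraries. Cdh1 stood at 0.460 and 0.424 FPKM at day 2, against 0.0224 and 0 FPKM at day 0. Its change of 0.51 ± 0.17 did not pass the test (adjusted p = 0.0786). It was called with FPKM rescaled to the same total in every library, as TPM (1.04, adjusted p = 0.0091). A pseudocount of 0.1 in place of 1 FPKM gave a call too (2.29, adjusted p = 0.000497). Whether Cdh1 was called with Perp, Itgb4 and Dsp or after them thus depended on the setting. Epcam, the 4 claudins and Ocln were all under 0.3 FPKM in both day 2 libraries, with changes between -0.12 and 0.17, none of them called. The median change of the 10 genes was 0.14, against 0.04 over all genes tested.

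Markers of stratified epithelium moved at the same time. The 6 keratinocyte markers summed to 7.51 and 8.39 FPKM at day 2 and to 1.46 and 1.97 FPKM at day 0; 1 of the 3 that could be tested, Krt14, rose (6.17 and 7.15 FPKM at day 2, 0.298 and 0.444 FPKM at day 0), while Krt5 and Krt15 were under 0.1 FPKM in both day 2 libraries. Of the 4 simple-epithelium keratins, Krt8 rose (3.95 and 4.38 FPKM at day 2, 0.644 and 0.659 FPKM at day 0). Their part in the rise of Perp, Itgb4 and Dsp was not tested.

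By day 4, 8 of the 10 genes were called higher than at day 0 and none lower, where 9.44% of all genes tested were called higher and 7.41% lower. The other two, Ocln and Cldn6, were higher with adjusted p under the threshold but under 2-fold, so that all 10 were higher at any fold, where 26% of all genes were. Both were listed at 0 at day 0, where adding 1 FPKM holds the change down, and both were called as TPM (Ocln 1.49, Cldn6 1.35) and with a pseudocount of 0.1 (Ocln 3.14, Cldn6 2.93). The median change of the 10 genes was 2.47, against 0.04 over all genes. Perp reached 88.8 and 109 FPKM, the highest level of any of the 10 genes in any group, and was 5.20 ± 0.14 above day 0 (adjusted p = 1.95e-07). Epcam had 21.2 and 20.7 FPKM at day 4 and 0.0974 and 0 FPKM at day 0 (4.39 ± 0.13, adjusted p = 3.35e-07), nearly all of it gained after day 2 (0.266 and 0.0962 FPKM).

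Cdh1 had 8.02 and 5.44 FPKM at day 4 (2.91 ± 0.17 above day 0, adjusted p = 4.89e-06), which left the replicates apart from each other but well above the day 2 libraries. Among the claudins, Cldn4 had 3.92 and 3.31 FPKM at day 4, against 0.161 and 0.104 FPKM at day 0, and rose by 2.02 ± 0.18 (adjusted p = 4.79e-05). Cldn7 (1.73 and 1.63 FPKM) and Cldn3 (1.58 and 1.5 FPKM) rose by 1.38 ± 0.13 and 1.22 ± 0.21 over day 0. Cldn6 had 0.947 and 0.452 FPKM and Ocln 0.905 and 0.677 FPKM at day 4, and both genes were listed at 0 in the 2 day 0 libraries, so no fold is given. Itgb4 had 14.3 and 7.01 FPKM at day 4 and Dsp 11.4 and 8.73 FPKM. For Itgb4 the day 4 pair spread around the day 2 pair, and neither gene was called between day 2 and day 4 (-0.11 ± 0.26, adjusted p = 0.788, for Itgb4; 0.46 ± 0.15, adjusted p = 0.0352, for Dsp).

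From day 2 to day 4 the called genes were thus Epcam, Cdh1, Cldn4, Perp, Cldn7 and Cldn3 (6 of 10, none lower, against 6.15% of all genes called higher and 4.76% lower). The call of Cldn3 was lost without day 2 replicate 1, where its change was 1.00. Other markers moved by day 4 as well, against day 0. Krt8, 1 of the 4 simple-epithelium keratins and the one called, had 87.5 and 78.5 FPKM at day 4, against 0.644 and 0.659 FPKM at day 0. The pluripotency markers summed to 92.2 and 76.9 FPKM at day 4, against 17.0 and 15.6 FPKM at day 0, with 4 of 8 called higher (Pou5f1, Tdh, Nanog and Zfp42). The fibroblast markers summed to 3644 and 3111 FPKM at day 4, against 5371 and 5032 FPKM at day 0, with Pdgfrb, Col1a1 and Thy1 called lower and Dcn higher. Krt14 and the trophoblast marker Tfap2c were also called higher and the endoderm marker Gata6 lower. The part of these markers in the junction gene changes was not tested.

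Between day 4 and day 7, 1 of the 10 genes was called higher and 2 lower, against 2.98% and 4.63% of all genes tested. Perp fell to 24.6 and 22.96 FPKM at day 7 (-2.01 ± 0.14, adjusted p = 4.86e-05) and Epcam fell to 8.19 and 8.82 FPKM (-1.21 ± 0.13, adjusted p = 0.000418). Cldn6 rose to 2.65 and 2.70 FPKM (1.13 ± 0.14, adjusted p = 0.000766), a call that was lost without day 4 replicate 2 (0.92). Cdh1 stayed near its day 4 level, at 4.90 and 5.32 FPKM (-0.32 ± 0.17, adjusted p = 0.177). At day 7, 9 of the 10 genes were called higher than at day 0, with a median change of 2.41; of all genes tested 6.21% were called higher and 3.91% lower. Ocln was the exception, at 0.304 and 0.182 FPKM (adjusted p = 0.0578). Fibroblast markers summed to 8492 and 8527 FPKM at day 7, against 3644 and 3111 FPKM at day 4. Between these days 3 of the 8 were called higher (Col1a1, Col1a2 and Postn) and 0 lower. Krt18 and the pluripotency marker Dppa5a were also called higher, and Krt8 and Tdh lower. Their part in the junction gene changes was not tested.

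Cdh1, Cldn4 and Epcam were higher in iPSCs than at day 7, and Itgb4 and Perp lower. Of the set, 3 of the 10 genes were called higher and 2 lower, where 23.9% and 21.8% of all genes were, shares close to those of the set. Cdh1 had 89.9 and 83.5 FPKM in iPSCs, against 4.90 and 5.32 FPKM at day 7, a rise of 3.84 ± 0.17 (adjusted p = 8.72e-08) and a 17.0-fold ratio of means. Cldn4 rose to 20.4 and 26.7 FPKM (1.87 ± 0.18) and Epcam to 28.8 and 31.7 FPKM (1.72 ± 0.13). In the other direction, Itgb4 fell to 1.32 and 1.57 FPKM in iPSCs, against 9.73 and 11.3 FPKM at day 7 (-2.23 ± 0.26, adjusted p = 5.23e-05). Perp fell to 4.85 and 3.95 FPKM (-2.20 ± 0.14, adjusted p = 9.89e-07). Dsp was at 2.86 and 2.51 FPKM in iPSCs, against 5.34 and 5.66 FPKM at day 7, a change of -0.82 ± 0.15 that stayed under 2-fold.

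Relative to day 0, 9 of the 10 genes were called higher in iPSCs (22.2% of all genes were, and 19.4% lower), led by Cdh1 at 6.44 ± 0.17, Epcam at 4.90 ± 0.13 and Cldn4 at 4.42 ± 0.18. Itgb4 was the weakest of the calls (1.01 ± 0.26, adjusted p = 0.00714), and it was lost without day 0 replicate 1 (0.99) or iPSC replicate 2 (0.94, adjusted p = 0.0616). Perp lay just under the 2-fold limit (0.99 ± 0.14, adjusted p = 0.00021). It passed with a pseudocount of 0.1 (1.30), without day 0 replicate 2 (1.04) and without iPSC replicate 2 (1.11). The fibroblast marker sums given above for the iPSC libraries were under 1% of those at day 0.

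**Figure D2:**
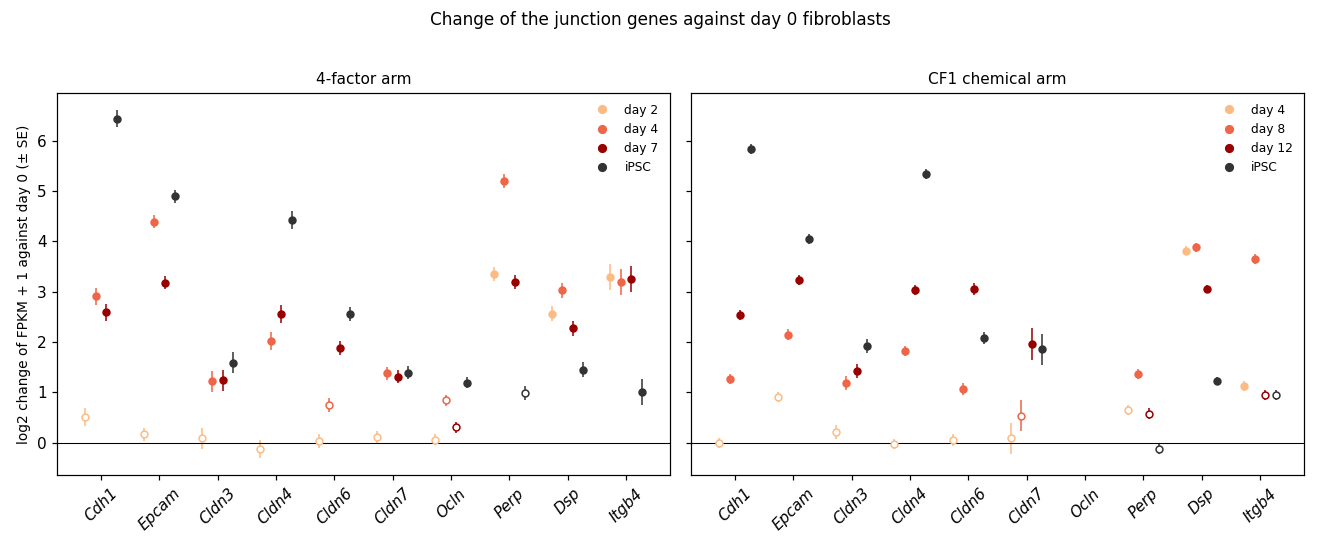
Change from day 0 in log2(FPKM + 1) for each junction gene, in the 4-factor arm (left) and the CF1 chemical arm (right), with standard errors as bars; filled circles are called genes and open circles are not. At day 2 of the 4-factor arm the filled circles are those of Perp, Dsp and Itgb4, and at day 4 of the CF1 arm those of Dsp and Itgb4.

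In the CF1 chemical arm Dsp and Itgb4 were called at day 4 and the other genes tested from day 8 on, Cldn7 at day 12. For Epcam and Cldn3 that order depended on the setting. Perp kept closer to its day 0 level than in the 4-factor arm. Of the 10 genes, 9 could be tested, since Ocln reached 1 FPKM in 1 library only. Cldn7 passed the filter through its day 12 and iPSC libraries, and Cdh1, Cldn3, Cldn4 and Cldn6 through day 8, day 12 and iPSC. Epcam, Dsp and Itgb4 reached 1 FPKM from day 4 on, and Perp alone did so at day 0. Counts against day 0 were thus partly fixed by the filter here too. At day 4, 2 of the 9 were called higher than at day 0 and none lower, against 11.7% and 8.08% of the 15442 genes tested. Dsp had 16.8 and 16.6 FPKM at day 4, against 0.252 and 0.251 FPKM at day 0 (3.82 ± 0.08, adjusted p = 2.96e-09). Itgb4 had 2.01 and 2.15 FPKM at day 4 and 0.436 and 0.370 FPKM at day 0 (1.13 ± 0.10, adjusted p = 1.79e-05). Epcam had 1.24 and 0.956 FPKM at day 4 and 0.0691 and 0.171 FPKM at day 0. It changed by 0.90 ± 0.10 (adjusted p = 7.58e-05), under the fold limit, and passed it as TPM (1.45) or with a pseudocount of 0.1 (2.48). Cldn3, at 0.0798 and 0.232 FPKM at day 4, was called with that pseudocount as well (1.29). Perp had 11.2 and 11.6 FPKM at day 4, against 6.48 and 7.32 FPKM at day 0. Its change of 0.65 ± 0.10 (adjusted p = 0.000378) was under 2-fold. Cdh1 was at 0.0956 and 0.113 FPKM at day 4 and 0.103 and 0.118 FPKM at day 0, overlapping pairs.

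Other cell-type markers moved with these genes at day 4. The 10 extra-embryonic endoderm markers summed to 57.6 and 63.9 FPKM at day 4, against 33.7 and 33.9 FPKM at day 0, and 4 of the 7 tested rose (Sox17, Sox7, Gata6 and Foxa2). Sox17 had 20.02 and 22.98 FPKM at day 4 and was listed at 0 in both day 0 libraries, while Afp and Cubn were under 0.1 FPKM in both day 4 libraries. The 8 trophoblast markers summed to 13.4 and 12.23 FPKM at day 4, against 6.26 and 6.51 FPKM at day 0, and 2 of 5 tested rose. Their part in the rise of Dsp and Itgb4 was not tested. The keratinocyte markers stayed low, with sums of 0.656 to 2.47 FPKM over the arm.

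By day 8, 8 of the 9 genes were called higher than at day 0 (11.9% of all genes were, and 12.4% lower), and the median change of the 9 was 1.36, against 0.00 over all genes. Itgb4 had 16.5 and 16.7 FPKM at day 8, its highest level in any group, and was 3.65 ± 0.10 above day 0 (adjusted p = 1.16e-08) and 2.52 ± 0.10 above day 4. Dsp stayed at 17.5 and 17.3 FPKM. Perp, whose day 0 level in these cells was 6.48 and 7.32 FPKM, had 20.1 and 18.4 FPKM at day 8 (1.36 ± 0.10, adjusted p = 2.78e-06), a 2.79-fold ratio of means. Its largest ratio to day 0 in the 4-factor arm, at day 4, was 57.7-fold.

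Cdh1 appeared at day 8 with 1.76 and 1.61 FPKM (1.27 ± 0.10 above day 0, adjusted p = 4.17e-06). Epcam had 4.23 and 3.73 FPKM at day 8 and Cldn4 2.79 and 2.97 FPKM. Cldn3 (1.23 and 1.32 FPKM) and Cldn6 (1.09 and 1.16 FPKM) passed 1 FPKM here, and Cldn3 was listed at 0 in both day 0 libraries. Against day 4, 5 of the 9 genes were called higher (5.61% of all genes were, and 7.47% lower), and Cldn6 among them (1.02 ± 0.12) lost its call without day 4 replicate 1 (0.95) or day 8 replicate 2 (1.00). The 4 simple-epithelium keratins all rose from day 4 to day 8, their sum being 55.7 and 48.7 FPKM at day 8 and 22.4 and 22.6 FPKM at day 4; their part in these changes was not tested.

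From day 8 to day 12, 3 claudins, Epcam and E-cadherin rose while Itgb4 fell. Of the 9 genes, 5 were called higher and 1 lower, against 3.52% and 7.69% of all genes. Cldn6 had 8.31 and 6.72 FPKM at day 12 (2.00 ± 0.12 above day 8, adjusted p = 2.21e-06), Cldn7 2.55 and 3.37 FPKM (1.41 ± 0.31, adjusted p = 0.00525), Cdh1 5.36 and 5.48 FPKM (1.26 ± 0.10), Cldn4 7.66 and 8.32 FPKM (1.21 ± 0.10) and Epcam 9.67 and 9.44 FPKM (1.09 ± 0.10). Cldn3 was not called between these days, at 1.74 and 1.62 FPKM at day 12 and 1.23 and 1.32 FPKM at day 8. Itgb4 fell to 1.96 and 1.48 FPKM at day 12 (-2.70 ± 0.10, adjusted p = 1.53e-07), close to its day 4 pair. Dsp, at 9.47 and 9.19 FPKM, and Perp, at 10.4 and 11.2 FPKM, were lower than at day 8 by less than 2-fold (-0.83 ± 0.08 and -0.78 ± 0.10). At day 12, 7 of the 9 genes were called higher than at day 0, against 10.1% of all genes higher and 15.5% lower, with a median change of 2.53, against -0.06 over all genes. The fibroblast markers as a sum were not lower by then, at 14387 and 14049 FPKM at day 12, against 3128 and 3036 FPKM at day 0. Of the 8, 5 were called higher than at day 0 (Dcn, Col3a1, Col1a1, Col1a2 and Pdgfra) and 1 lower (Pdgfrb). From day 8 to day 12, 5 were called higher and 2 lower (Thy1 and Pdgfra).

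The iPSCs of the CF1 arm again carried the highest Cdh1 and Cldn4. Against day 12, 2 of the 9 genes were called higher and 1 lower, where 28.4% and 20.8% of all genes were. Cdh1 had 57.9 and 67.6 FPKM in iPSCs, against 5.36 and 5.48 FPKM at day 12 (3.31 ± 0.10, adjusted p = 3.33e-09). Cldn4 had 43.6 and 42.6 FPKM, its highest level in any group (2.29 ± 0.10, adjusted p = 2.96e-08). Dsp fell to 1.77 and 2.13 FPKM (-1.81 ± 0.08, adjusted p = 5.97e-08). Cldn6 was lower in iPSCs, at 2.98 and 3.69 FPKM, than at day 12, and its change of -0.97 ± 0.12 (adjusted p = 5.78e-05) fell just short of 2-fold, passing it as TPM (-1.24). Cldn7 differed strongly between the iPSC libraries, at 1.42 and 4.56 FPKM, and was not called. Relative to day 0, 7 of the 9 genes were called higher (21.1% of all genes were, and 19.4% lower). Cdh1 was higher by 5.84 ± 0.10 and Cldn4 by 5.34 ± 0.10. Perp was at 5.71 and 6.85 FPKM in iPSCs, overlapping its day 0 libraries (-0.12 ± 0.10, adjusted p = 0.284).

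Ocln, not tested in this arm, stayed low: 0.0184 and 0.0430 FPKM at day 0, 0.516 and 0.279 FPKM at day 4, 0.377 and 0.576 FPKM at day 8, 0.702 and 0.769 FPKM at day 12, and 1.15 and 0.751 FPKM in iPSCs. Every later library lay above both day 0 libraries, at levels near 1 FPKM or below.

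The difference between the arms was tested in a fit over both tables, as the CF1 change minus the 4-factor change. How the cells were reprogrammed, the mouse stock and the table cannot be told apart in it, and day 4 is an early point of a longer course in the CF1 arm. At day 4, 7 of the 10 genes had a smaller change in the CF1 arm and none a larger one at 2-fold or more, against 13.2% of the 16205 genes tested that were called lower and 14.2% called higher. The difference was -4.54 ± 0.17 for Perp (adjusted p = 4.45e-11), -3.48 ± 0.16 for Epcam (3.19e-10), -2.92 ± 0.19 for Cdh1 (1.24e-08), -2.06 ± 0.30 for Itgb4 (4.84e-05), -2.05 ± 0.20 for Cldn4 (1.1e-06), -1.29 ± 0.36 for Cldn7 (0.00802) and -1.01 ± 0.26 for Cldn3 (0.00525). The Cldn3 call was lost without day 0 replicate 2 (-0.99) or day 4 replicate 1 (-0.99) of the 4-factor arm, or without CF1 day 4 replicate 1 (-0.91). Dsp alone had the larger change in the CF1 arm, 3.82 against 3.03, with a difference of 0.79 ± 0.16 (adjusted p = 0.000788) that was under 2-fold. Other markers differed with these genes: Krt8, Krt19 and Krt14 had a smaller change in the CF1 arm, and Sox17, Gata6, Sox7, Foxa2, Pdgfra, Thy1 and Eomes a larger one. Of the 8 pluripotency markers, 5 had a smaller change in the CF1 arm (Pou5f1, Tdh, Nanog, Klf2 and Zfp42), with a median difference of -1.97. Their part in the differences was not tested.

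For the change from day 0 to iPSC, the arms differed in 1 of the 10 genes, against 4.94% of all genes called lower and 5.91% higher. That count is near the share of all genes and is not read as a result about the set. Perp had a difference of -1.11 ± 0.17 (adjusted p = 0.00022): the CF1 change was -0.12 and the 4-factor change 0.99. Its iPSC levels were 5.71 and 6.85 FPKM in the CF1 arm and 4.85 and 3.95 FPKM in the 4-factor arm, and its day 0 levels 6.48 and 7.32 FPKM in CF1 MEFs and 1.61 and 1.83 FPKM in 129XOG2 MEFs, so the arms lay further apart at day 0 than in iPSCs. The call was lost without 4-factor iPSC replicate 1 or without CF1 iPSC replicate 1, where the difference was -0.99. Cldn4 (0.91 ± 0.20), Epcam (-0.85 ± 0.16) and Cdh1 (-0.60 ± 0.19) differed with adjusted p of 0.00365, 0.00103 and 0.027 but under 2-fold. The fibroblast marker list moved with this comparison too, 7 of its 8 genes having a less negative change in the CF1 arm; its part in the Perp difference was not tested.

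The removal experiment asked what each small molecule contributed between day 8 and day 12. All 10 junction genes were expressed in these day 12 cells and all 10 were tested. In none of the 4 comparisons with CT was a junction gene called by limma at 2-fold, where 0.971% (-CHIR), 1.27% (-PD), 2.33% (-VC) and 0.91% (-WS) of the 13290 genes tested were called in either direction. At an unadjusted p under 0.05, at any fold, 5, 5, 8 and 6 of the 10 genes differed in -CHIR, -PD, -VC and -WS. The share of all genes under that rule was not computed, so these counts are not read as a result about the set. Changes under 2-fold with adjusted p under 0.05 are described from here on, and their background was 5.68% of all genes higher and 3.71% lower in -CHIR, 10.3% and 4.15% in -PD, 24.3% and 9.57% in -VC, and 5.4% and 3.87% in -WS. CT replicate 2, the library with the low mitochondrial share, enters all 4 comparisons, which therefore share their control.

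Without VC, Dsp was higher and 7 of the other junction genes were lower, while Cldn3 and Perp did not pass the test (0.03 ± 0.11 and 0.20 ± 0.10). Dsp had 16.4 and 16.5 FPKM in -VC, against 9.71 and 9.58 FPKM in CT, a difference of 0.72 ± 0.06 (adjusted p = 9.91e-05) that was 0.71 without CT replicate 2. Both -VC libraries lay above all 8 other libraries of the table. At adjusted p under 0.05, 7 genes were lower in -VC, namely Itgb4 (-0.50 ± 0.14), Cldn4 (-0.48 ± 0.12), Cldn7 (-0.48 ± 0.09), Ocln (-0.47 ± 0.13), Cldn6 (-0.42 ± 0.13), Epcam (-0.38 ± 0.08) and Cdh1 (-0.27 ± 0.08).

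Cdh1 itself had 14.7 and 14.9 FPKM in -VC, against 19.4 and 16.6 FPKM in CT. Epcam had 18.4 and 18.8 FPKM in -VC, the lowest pair of the table, against 25.0 and 23.9 FPKM in CT. Itgb4 had 0.645 and 0.807 FPKM in -VC and 1.73 and 1.19 FPKM in CT. The number of genes lower depended on single libraries and on the filter. It was 6 without CT replicate 2, 4 without CT replicate 1, 3 without -VC replicate 1 or without -VC replicate 2, and 2 with no filter on low values (Epcam and Cldn7). Dsp passed under each of these settings. The median change of all genes was 0.13 here and 0.00 as TPM, and as TPM the same 7 genes had changes between -0.84 and -0.43. Fibroblast markers were also lower in -VC, with sums of 10691 and 10871 FPKM, against 21152 and 27715 FPKM in CT, 4 of 8 genes being called lower (Col1a1, Col1a2, Col3a1 and Postn). The 4 simple-epithelium keratins summed to 69.2 and 69.7 FPKM in -VC, against 89.2 and 82.1 FPKM in CT, with 3 of the 4 lower at adjusted p under 0.05 and none called. The part of either list in the differences was not tested.

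Without CHIR, 3 claudins were lower and no junction gene was higher at adjusted p under 0.05. Cldn4 had 7.50 and 7.61 FPKM in -CHIR, against 13.5 and 12.3 FPKM in CT (-0.70 ± 0.12, adjusted p = 0.00697). Cldn3 had 0.967 and 0.762 FPKM in -CHIR and 1.66 and 1.82 FPKM in CT (-0.56 ± 0.11, adjusted p = 0.0123). Cldn7 had 7.93 and 7.86 FPKM in -CHIR and 10.5 and 12.3 FPKM in CT (-0.48 ± 0.09, adjusted p = 0.0105). These were the lowest Cldn3 and Cldn4 pairs of the table. The 3 differences rested on both -CHIR libraries: 1 passed without -CHIR replicate 1 (Cldn3) and 0 without -CHIR replicate 2, with Cldn4 at -0.69 and -0.71 in these fits. Cldn6, by contrast, had 20.1 and 19.0 FPKM in -CHIR, within the CT range of 21.2 and 15.3 FPKM, and without CT replicate 1 it was higher in -CHIR (0.33, adjusted p = 0.0206), and Epcam was at 25.0 FPKM in both -CHIR libraries. The extra-embryonic endoderm markers summed to 131 and 122 FPKM in -CHIR, against 102 and 83.0 FPKM in CT, with 4 of 7 higher at adjusted p under 0.05 and none called; their part in the claudin differences was not tested.

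Without PD, Cldn3, Epcam and Cdh1 were higher. Cldn3 had 3.38 and 3.35 FPKM in -PD, against 1.66 and 1.82 FPKM in CT (0.67 ± 0.11, adjusted p = 0.00415), and Cdh1 22.9 and 23.6 FPKM in -PD, against 19.4 and 16.6 FPKM in CT (0.35 ± 0.08, adjusted p = 0.018). Epcam had 33.8 and 29.8 FPKM in -PD and 25.0 and 23.9 FPKM in CT (0.36 ± 0.08, adjusted p = 0.0148). As TPM the changes of Cdh1 and Epcam were 0.21 and 0.22, and Cldn3 was the one of the 3 that passed (0.69). Without -PD replicate 1 the number higher was 1. Fibroblast markers summed to 14475 and 13995 FPKM in -PD, against 21152 and 27715 FPKM in CT, 6 of 8 being lower at adjusted p under 0.05 and none called; their part was not tested.

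Without WS, Cldn3 and Cldn4 were higher and Perp lower. Cldn3 had 3.20 and 3.65 FPKM in -WS (0.69 ± 0.11, adjusted p = 0.00433), again above both CT libraries. Cldn4 had 19.1 and 20.9 FPKM in -WS, against 13.5 and 12.3 FPKM in CT (0.59 ± 0.12, adjusted p = 0.0155), with an adjusted p of 0.0598 without CT replicate 2. Perp had 5.69 and 5.90 FPKM in -WS and 8.66 and 8.25 FPKM in CT (-0.48 ± 0.10, adjusted p = 0.0179). The number higher was 5 without CT replicate 1, 1 without CT replicate 2 or without -WS replicate 1, and 0 without -WS replicate 2, and Perp did not pass without either -WS library.

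**Figure D3:**
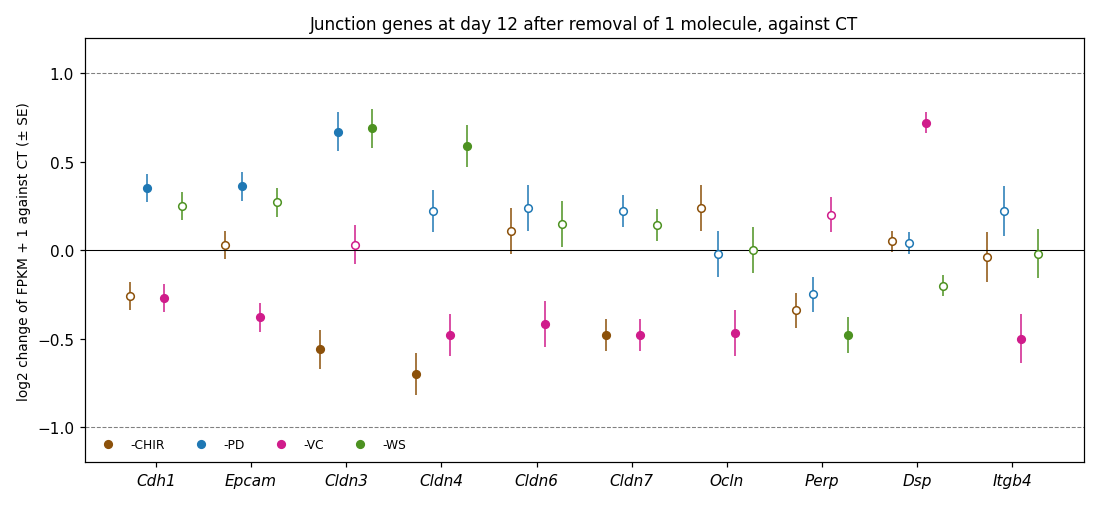
Change against CT in log2(FPKM + 1) for each junction gene after leaving out CHIR, PD, VC or WS, with standard errors as bars; filled circles have a limma adjusted p under 0.05 and open circles do not, and no change reaches 2-fold. Dsp in -VC is the highest point (0.72) and Cldn4 in -CHIR the lowest (-0.70).

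Comparing the removals with each other leaves CT out. In -PD minus -CHIR, 1 of the 10 genes was called, Cldn3 at 1.23 ± 0.11 (adjusted p = 4.22e-05), against 3.9% of all genes called in either direction. It had 3.38 and 3.35 FPKM in -PD and 0.967 and 0.762 FPKM in -CHIR. Cldn4 (0.92 ± 0.12), Cldn7 (0.69 ± 0.09), Cdh1 (0.62 ± 0.08) and Epcam (0.33 ± 0.08) were also higher in -PD at adjusted p under 0.05, making 5 of 10 genes, and none lower, where 17.1% of all genes were higher and 11.2% lower. Without -PD replicate 2 Cldn4 was called as well (1.10). Of the markers, Dcn and Thy1 (fibroblast), Foxa2 and Dab2 (endoderm) and Klf2 were called lower in -PD, and Esrrb, Tfcp2l1 (pluripotency) and Cdx2 (trophoblast) higher; Dcn had 633 and 652 FPKM in -PD, against 1656 and 1703 FPKM in -CHIR. Their part in the differences was not tested.

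In -VC minus -WS, 1 gene was called, Cldn4 at -1.08 ± 0.12 (adjusted p = 0.000278), against 2.6% of all genes. Cldn4 had 9.47 and 8.42 FPKM in -VC and 19.1 and 20.9 FPKM in -WS. All 10 genes had an adjusted p under 0.05 in this comparison, 8 lower in -VC and 2 higher (Dsp by 0.92 ± 0.06 and Perp by 0.68 ± 0.10), where 10.6% of all genes were lower and 16.9% higher. The number lower was 5 without -VC replicate 1 or without -WS replicate 1. In -WS minus -PD no gene was called (0.647% of all genes were) and none had an adjusted p under 0.05 (2.88% of all genes did as higher and 4.48% as lower). At an unadjusted p under 0.05 there were 2 of the 10, a count for which the share of all genes was not computed.

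Set in order over the 15 groups, the genes fall on different peaks; tables may have been normalized separately, so levels set across them carry no test. Cdh1 was highest in 4-factor iPSCs (mean 86.7 FPKM) and CF1 iPSCs (62.7 FPKM), followed by -PD (23.2 FPKM), -WS (21.5 FPKM) and CT (18.01 FPKM). The pairs of -CHIR and -VC, both with a mean of 14.8 FPKM, overlapped each other, as did those of 4-factor day 4 (6.73 FPKM) and CF1 day 12 (5.42 FPKM). Cldn4 alone shared this peak, with a mean of 43.1 FPKM in CF1 iPSCs and 23.5 FPKM in 4-factor iPSCs, the second overlapping -WS.

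Cldn6, Cldn7 and Ocln peaked in the day 12 cells of the removal experiment instead. Cldn6 was highest in -PD (mean 21.4 FPKM), whose libraries overlapped those of -WS, and stood at 4.85 FPKM in 4-factor iPSCs and 3.33 FPKM in CF1 iPSCs. Cldn7 peaked in -PD (13.4 FPKM), against 1.71 FPKM in 4-factor iPSCs and 2.99 FPKM in CF1 iPSCs, and Ocln in -CHIR (2.99 FPKM). Cldn3 never exceeded a mean of 3.42 FPKM (-WS), and its libraries overlapped between neighbouring groups from -WS down to 4-factor day 4. Epcam was spread more evenly, with means of 31.8 FPKM in -PD, 30.2 FPKM in 4-factor iPSCs and 29.8 FPKM in -WS, pairs that overlapped in turn.

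The remaining 3 genes peaked among the intermediates of the arms. Perp had means of 99.2, 27.0 and 23.8 FPKM at days 4, 2 and 7 of the 4-factor arm, pairs that did not overlap, and was the one gene of the 10 with a mean over 1 FPKM in all 15 groups. Dsp peaked at CF1 day 8 (17.4 FPKM) and day 4 (16.7 FPKM), with -VC next (16.5 FPKM). Itgb4 peaked at CF1 day 8 (16.6 FPKM), above the overlapping pairs of 4-factor days 2, 4 and 7.

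Across the 15 group means of log2(FPKM + 1), Pearson's r was 0.97 between Cdh1 and Cldn4, 0.97 between Cldn6 and Cldn7, and 0.93 between Cldn7 and Ocln. Perp and Itgb4 had an r of 0.82 with each other, but of -0.18 and -0.17 with Cdh1. Dsp had an r of 0.48 with Perp and 0.44 with Itgb4. With Cdh1, Epcam, the claudins and Ocln its r ran from 0.13 (Cdh1) to 0.45 (Ocln). These values describe 15 points that share tables, time courses and the contrast of MEFs with later cells, so no test is attached. Among 11043 genes with a mean of at least 5 FPKM in some group, the 3 nearest to Cdh1 were St14 (0.97), Serpinb6c (0.97) and Cldn4 (0.97), St14 being a membrane serine protease of epithelia. The nearest to Perp were Aldh3a1 (0.92), an aldehyde dehydrogenase known from cornea, then Krtdap (0.88) and Fundc1 (0.86), and those to Itgb4 were Aldh3a1 (0.91), Snx14 (0.88) and Nt5e (0.86).

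**Figure D4:**
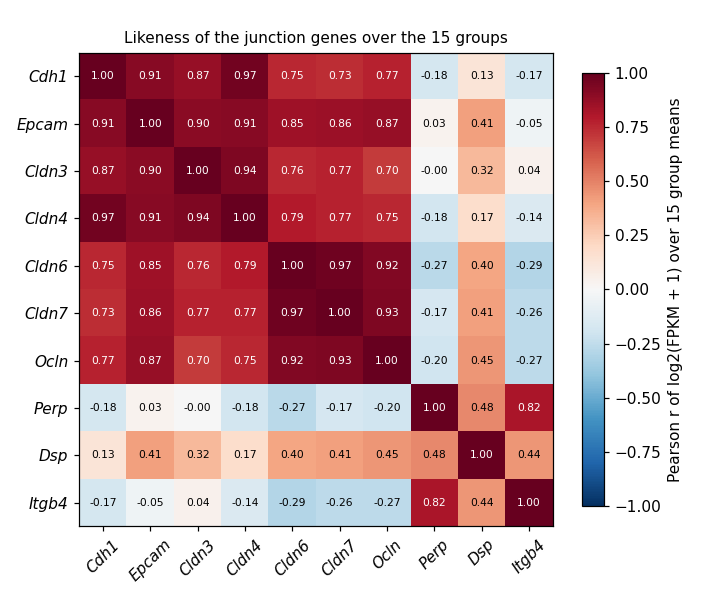
Pearson's r between each pair of junction genes over the 15 group means of log2(FPKM + 1), red for positive and blue for negative values. Cdh1, Epcam, the claudins and Ocln form a block with r from 0.70 to 0.97, and Perp pairs with Itgb4 (0.82).

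Partner genes of the same junctions were counted beside the 10. Their lists were written from general knowledge but with earlier results of these data known, so their counts are no independent support. Of the desmosome partners, 6 of 12 matched genes could be tested in the 4-factor arm. At day 2 Dsc2, a desmosomal cadherin, rose with Dsp and Perp (2.12 and 2.67 FPKM at day 2, 0.0746 and 0.160 FPKM at day 0, a change of 1.60 ± 0.17). At day 4, 4 of the 6 rose (Pkp1, Dsc2, Pkp2 and Pkp3), against 9.44% of all genes called higher. Plakophilins Pkp1 to Pkp3 join desmosomal cadherins to desmoplakin. The median change of the 6 was 1.09, against 0.04 over all genes. In the CF1 arm at day 4, Dsc3 (6.24 and 5.84 FPKM at day 4, 0.0322 and 0.0543 FPKM at day 0) and Dsc2 rose with Dsp, while Pkp2 and Ppl fell. Thus 2 of the 7 tested were called each way, against 11.7% of all genes higher and 8.08% lower. At day 8, where Dsp was highest, 0 of the 7 were higher than at day 0 and 3 were lower (Pkp2, Pkp4 and Ppl). Of all genes 11.9% were higher and 12.4% lower. The 12 matched genes summed to 6.58 and 6.63 FPKM at day 8, against 31.1 and 33.6 FPKM at day 0. Dsg2, the desmosomal cadherin desmoglein 2, was highest in iPSCs in both arms, at 13.99 and 9.73 FPKM in 4-factor iPSCs (Dsp 2.86 and 2.51 FPKM) and 10.9 and 10.6 FPKM in CF1 iPSCs (Dsp 1.77 and 2.13 FPKM).

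Among hemidesmosome partners, Itga6, whose integrin alpha 6 pairs with Itgb4, rose at day 2 of the 4-factor arm together with Itgb4 (48.1 and 46.1 FPKM at day 2, 18.5 and 16.4 FPKM at day 0, a change of 1.39 ± 0.15). It was the 1 called gene of the 9 tested, against 1.95% of all genes called higher. In the CF1 arm at day 4 Itga6 fell (-1.14 ± 0.10) while Itgb4 rose. Plec, Itgb1 and Dst fell there as well. In -VC it rose too, with 17.2 and 17.8 FPKM, against 6.02 and 6.48 FPKM in CT (1.35 ± 0.09, adjusted p = 2.22e-05), where Itgb4 was lower. Col17a1, the hemidesmosomal collagen, was under 0.4 FPKM in every CF1 and removal library. It reached 1.51 and 1.61 FPKM at day 7 of the 4-factor arm.

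Of 18 tight junction partners tested in the 4-factor arm, 1, 2 and 1 were called higher than at day 0 at days 2, 4 and 7. The shares of all genes were 1.95%, 9.44% and 6.21%. At day 4, 1 was lower (Amot), where 7.41% of all genes were. In iPSCs 9 were higher and 2 lower (22.2% and 19.4% of all genes were). Jam2, a junctional adhesion molecule, had 54.3 and 49.8 FPKM in 4-factor iPSCs, against 1.53 and 1.42 FPKM at day 0, and Crb3 and Lsr rose by 2.67 ± 0.23 and 2.38 ± 0.21. In the CF1 arm 3 of 19 were higher at day 4, 2 at day 8 and 4 at day 12, against 11.7%, 11.9% and 10.1% of all genes. At day 12, 5 were lower, against 15.5% of all genes. In CF1 iPSCs 8 were higher and 2 lower, against 21.1% and 19.4% of all genes. Of 16 other claudins matched, few passed the filter (2, 3 and 4 in the 3 tables). Cldn11, a claudin of myelin and testis, had 15.1 and 15.7 FPKM at CF1 day 4, against 0.229 and 0.366 FPKM at day 0 (3.66 ± 0.09), and was listed at 0 in the iPSCs of both arms. It was also the one gene of all 6 partner lists called in -CHIR, with 4.48 and 5.15 FPKM, against 0.639 and 0.680 FPKM in CT (1.81 ± 0.11, adjusted p = 3.19e-05), while Cldn3, Cldn4 and Cldn7 were lower there.

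Epithelial surface partners are proteases, their inhibitors, sorting proteins and the transcription factors Ehf and Elf3. In the 4-factor arm 1 of 8 tested rose by day 2 (Ehf, 1.07 ± 0.12), 7 by day 4 and by day 7, and 6 in iPSCs, against 1.95%, 9.44%, 6.21% and 22.2% of all genes. In the CF1 arm 0 of 7 were called at day 4, 3 rose by day 8, 7 by day 12 and 6 in iPSCs. The shares of all genes were 11.7%, 11.9%, 10.1% and 21.1%. At adjusted p under 0.05 and any fold, 3 were higher at day 4. That count has no share of all genes beside it and is not read as a result about the list. At day 4, 6 of 8 had a smaller change in the CF1 arm than in the 4-factor arm, against 13.2% of all genes. Spint2, a protease inhibitor, had 33.3 and 49.0 FPKM at day 4 of the 4-factor arm, against 3.25 and 3.80 FPKM at day 0. In none of the 4 comparisons with CT was a gene of this list called.

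Of 13 adherens junction partners tested in the 4-factor arm, none rose over day 0 and 2, 6, 3 and 5 fell at day 2, day 4, day 7 and in iPSCs, against 1.73%, 7.41%, 3.91% and 19.4% of all genes. The others were not called. From day 7 to iPSC 3 rose (Nectin2, Afdn and Nectin1) and 4 fell, against 23.9% of all genes called higher and 21.8% lower. N-cadherin (Cdh2), the cadherin that E-cadherin is known to replace in this transition, had 2.13 and 1.69 FPKM in 4-factor iPSCs, against 26.9 and 26.7 FPKM at day 0 (-3.26 ± 0.14, adjusted p = 7.72e-08). Cdh11, a mesenchymal cadherin, had 1.06 and 0.752 FPKM in those iPSCs and 150 and 144 FPKM at day 0 (-6.28 ± 0.14). Cdh3, encoding P-cadherin, had 2.00 and 2.19 FPKM in those iPSCs and 26.9 and 25.6 FPKM at day 0 (-3.14 ± 0.22).

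In the CF1 arm Cdh11 went up at day 4 while Cdh2 and Cdh3 went down. Cdh11 rose at day 4, to 338 and 337 FPKM, against 99.6 and 100 FPKM at day 0 (1.75 ± 0.05), and was at 2.59 and 2.35 FPKM in iPSCs (-4.86 ± 0.05). Cdh3 fell at day 4, to 0.333 and 0.433 FPKM, against 10.5 and 10.3 FPKM at day 0 (-3.05 ± 0.14). Cdh2 fell at day 4, to 16.03 and 16.04 FPKM (-1.39 ± 0.09), and had 3.31 and 3.94 FPKM in CF1 iPSCs, against 42.8 and 44.5 FPKM at day 0 (-3.27 ± 0.09). At CF1 day 12 Cdh1 (5.36 and 5.48 FPKM) and Cdh2 (5.88 and 7.06 FPKM) were thus at like levels per length in the same libraries, with Cdh11 at 194 and 198 FPKM.

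**Figure D5:**
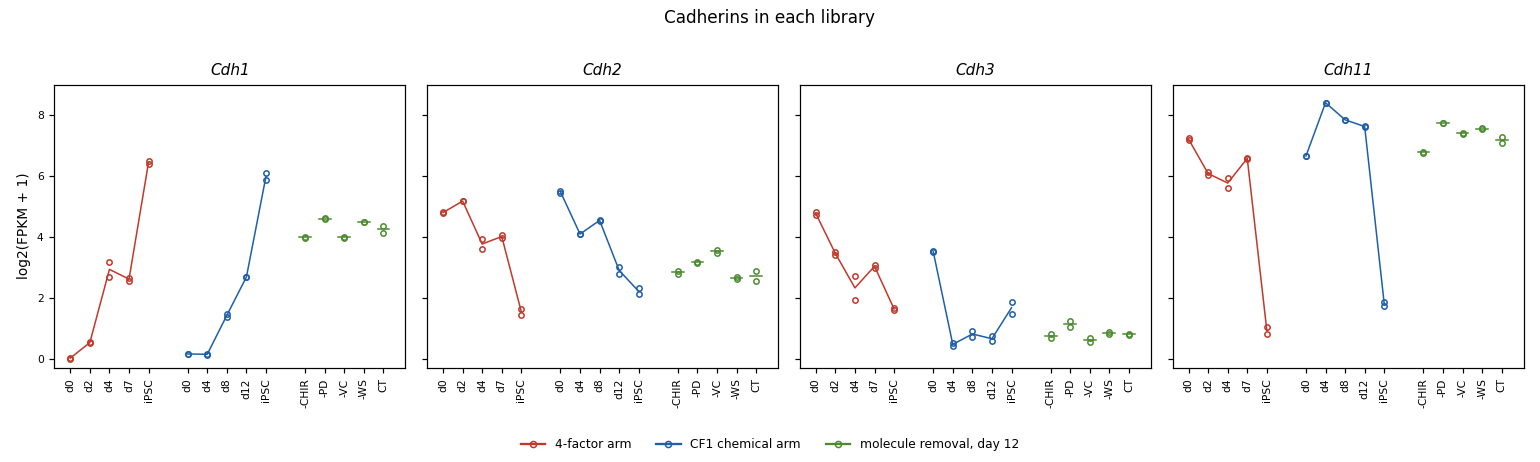
Levels of E-cadherin (Cdh1), N-cadherin (Cdh2), P-cadherin (Cdh3) and Cdh11 in every library as log2(FPKM + 1), with circles for libraries and lines or bars for 2-library means. In both arms Cdh1 is highest in iPSCs, where Cdh2 and Cdh11 are at their lowest within the arm.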

How the data were processed

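The authors deposited FPKM values per gene in 3 tables. Per the labels' protocols, reads were 150 bp; the tools listed in the submitters' processing notes are HISAT2 2.2.1, StringTie 2.0 and fastp 0.20.1, with the build mm10. The annotation and any use of strand are not given in the sources used here, so overlapping genes cannot be told apart. Symbols came from GENCODE M21. FPKM holds no counts, so no count model was run. Genes that reached 1 FPKM in 2 or more of a table's libraries entered the tests, on log2(FPKM + 1) with limma 3.58.1 (R 4.3.3), 1 coefficient per group, moderated with a trend, Benjamini-Hochberg adjusted per comparison over all genes tested: 14761, 15442, 13290 and, in the fit over both arms, 16205. All p-values are limma's. All 10 junction genes were named throughout; of a partner list up to 4 called genes with the largest change may be named, and partner levels given beside a junction gene were chosen after their values were seen. Members and lists were chosen with earlier results of these data known. Alternatives were a pseudocount of 0.1, no filter, TPM, a replicate block and leaving out each replicate.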

Additional observations from a re-analysis of the deposited data

Results flagged for a closer look

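Values named here are differences of log2 change between the arms, CF1 minus 4-factor, that passed limma's test in the fit over both tables at 2-fold or more; the test of the difference itself is what singled them out. For the change from day 0 to day 4 they are Perp at -4.54, Epcam at -3.48, Cdh1 at -2.92, Itgb4 at -2.06, Cldn4 at -2.05, Cldn7 at -1.29 and Cldn3 at -1.01. For the change from day 0 to iPSC the value is Perp at -1.11. This count of 1 of the 10 genes is near the share of all genes (4.94% called lower and 5.91% higher). The Perp call in iPSCs and the Cldn3 call at day 4 were lost when single libraries were left out, as given above. Method, mouse stock and table cannot be told apart in any of them.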

How the results depend on the processing

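Of 223 tests of a junction gene, 91 were called, and no called change turned its sign under any of the alternatives run. Counts of called genes that moved by over 1.5 times were few. At CF1 day 4 minus day 0 the count was 4 with a pseudocount of 0.1, against 2. For CF1 minus 4-factor in iPSC minus day 0 it was 3 with that pseudocount, 2 as TPM and 0 to 2 leaving out 1 library, against 1. For -PD minus -CHIR it was 1 to 2 leaving out 1 library, against 1. Counts at adjusted p under 0.05 and any fold, in the removal experiment, moved more. Leaving out 1 library gave 0 to 1 higher (against 0) and 0 to 4 lower (against 3) in -CHIR, 1 to 4 higher (against 3) in -PD, 3 to 6 lower (against 7) in -VC, 0 to 5 higher (against 2) and 0 to 1 lower (against 1) in -WS, 0 to 1 higher (against 0) in -WS minus -PD, and 5 to 7 lower (against 8) in -VC minus -WS. As TPM, -PD had 1 higher and 1 lower (against 3 and 0) and -WS 2 lower (against 1). With no filter, -VC had 2 lower (against 7), -WS 1 higher (against 2) and -WS minus -PD 1 lower (against 0). Leaving out a library leaves its group with 1, which is assumed to vary like the others. The causes were not tested.

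With a replicate block the 91 calls were all kept; for example, 9 junction genes were called in 4-factor iPSCs minus day 0, as without it. Deviations of same-numbered libraries correlated with r of -0.21 to 0.25, -0.11 to 0.07 and -0.06 to 0.05 over the pairs of groups in the 3 tables. A shared culture effect may be small beside technical spread, so these values cannot decide whether same numbers mark paired samples. FPKM and TPM moved the median of all genes by over 0.1 in 11 of 23 comparisons, with shifts between -0.05 and 0.20. With 2 libraries per group and no counts, small differences at levels near 1 FPKM could not be resolved.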
